A study of Homo sapiens with 8 samples.

Results

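The UPF and SMG factors of nonsense-mediated mRNA decay (NMD) were examined at the level of their own mRNAs and ribosome footprints in human cells with and without XRN1. The members were chosen by name and are UPF1, UPF2, UPF3A, UPF3B, SMG1, SMG5, SMG6, SMG8 and SMG9, and all 9 had a row among the 10105 genes of the count table. The cells were HEK293T, a line derived from human embryonic kidney, either wild type (WT) or XRN1-null, grown in both cases on dishes of 15 cm and harvested 24 h after plating. Total mRNA was measured by RNA-Seq and ribosome-protected fragments (RPF) by Ribo-Seq, with 2 biological replicates for each genotype and assay, 8 libraries in all. The XRN1-null cells came from CRISPR/Cas9 editing of exon 6 of XRN1 and were a single line, so loss of XRN1 and any other difference of that line from WT cells cannot be told apart.

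In NMD, the helicase UPF1 is recruited to ribosomes that terminate in a context read as premature, and UPF2 with UPF3B or UPF3A links it to exon junction complexes left downstream by splicing. The kinase SMG1, held in a complex with SMG8 and SMG9, phosphorylates UPF1, and phosphorylated UPF1 is bound by the endonuclease SMG6 and by SMG5. XRN1 is the cytoplasmic exonuclease that degrades decapped mRNAs and the downstream fragments of SMG6 cleavage from their 5′ ends. Several of the mRNAs for these factors are described as NMD targets themselves, which forms a feedback loop.

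RNA-Seq libraries held 33757487 to 38145433 counts and Ribo-Seq libraries 1921641 to 4399542, with the lowest total in WT replicate 1. XRN1 mRNA was 33.5 and 33.0 CPM (counts scaled to a common library total) in WT and 282 and 253 CPM in the XRN1-null libraries, an 8.03-fold rise, whereas its footprints were 34.4 and 49.8 CPM in WT and 22.6 and 18.4 CPM in XRN1-null cells. An edited exon need not lower the transcript, and both XRN1-null libraries had fewer XRN1 footprints than either WT library. That footprint change did not pass the threshold (false discovery rate, FDR, 0.00641). The ratio of XRN1 footprints to mRNA was called lower (log2 -4.09 ± 0.22, FDR 1.66e-06). The paper reported no XRN1 protein on a western blot, a frameshift deletion in the edited exon and a retained intron in every XRN1 transcript it detected. All 7 markers fixed for HEK293T had counts in every library. In mRNA, NES (log2 0.56 ± 0.11, FDR 0.00338) and KRT18 (0.49 ± 0.08, FDR 0.00130) of these were called higher and NEFM lower (-0.59 ± 0.13, FDR 0.00455) in XRN1-null cells, that is 2 and 1 of 7 where 22.9% and 23.2% of all genes were called. Of 5 markers of other cell types, COL1A1 had a row, with mRNA between 13.9 and 15.4 CPM in WT and between 36.8 and 37.3 CPM in XRN1-null cells (called higher, log2 1.34 ± 0.08, FDR 1.72e-05), and the other 4 were not analysed here. The part of these markers' differences in the results was not tested.

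At the mRNA level, 7 of the 9 factors rose in XRN1-null cells and none fell (edgeR, quasi-likelihood test, FDR below 0.005 over all genes). Among all genes, 22.9% were called higher and 23.2% lower, and the median log2 fold change was 1.02 for the factors against -0.01 for all genes. Since CPM are shares of a library, a change per cell and a change in the rest of the RNA cannot be told apart. The count of 0 that fell became 1 at an unadjusted p under 0.05, against 36% of all genes, and was 0 with DESeq2, against 24.2%. The values of WT and XRN1-null libraries did not overlap for 9 of 9 factors in mRNA, with 8 higher and SMG8 lower in XRN1-null cells. With 2 libraries per genotype this was common, and 41% of all genes were higher and 43.7% lower without overlap. In the footprints, 1 of 9 was called higher, SMG9, against 0.633% of all genes, and none lower, against 1.14% of all genes. The groups did not overlap for 6 of 9 factors, all higher in XRN1-null cells, as for 32.1% of all genes, and 0 of 9 were lower without overlap, against 32.3% of all genes.

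**Figure D1:**
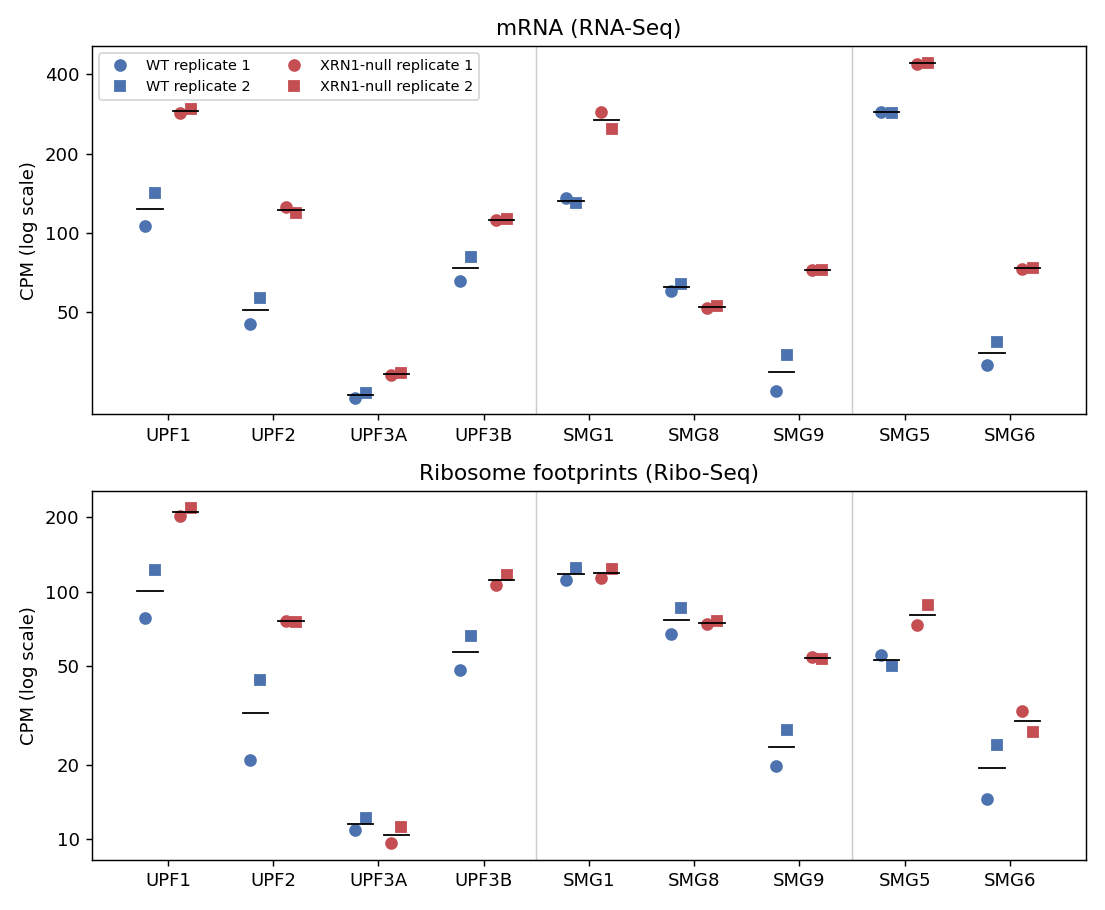
Level of each factor in every library, in CPM on a log scale, for mRNA (top) and footprints (bottom), with WT in blue, XRN1-null in red, circles for replicate 1, squares for replicate 2 and black lines for group means. The XRN1-null mRNA values lie above WT for 8 factors and below for SMG8, and the footprints of UPF3A, SMG1 and SMG8 overlap between genotypes.

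UPF1, the central helicase of the pathway (chr19:18942768-18979039, plus strand, GRCh37), had mRNA levels of 106 and 142 CPM in WT and 285 and 296 CPM in XRN1-null cells. Both XRN1-null values were above both WT values, and the WT replicates stood apart by more than the XRN1-null ones. The fold change was 2.35, with a log2 change of 1.23 ± 0.13 (SE, n = 2 libraries per genotype) and an FDR of 0.000128. Its footprints were 78.7 and 122 CPM in WT and 203 and 218 CPM in XRN1-null cells. These groups did not overlap, and the log2 change of 1.04 ± 0.18 had an FDR of 0.00582, just outside the threshold.

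UPF2, the adaptor between UPF1 and the UPF3 proteins (chr10:11962021-12085169, minus strand), had mRNA levels of 45.2 and 56.9 CPM in WT and 125 and 119 CPM in XRN1-null cells, and footprints of 20.8 and 44.1 CPM against 76.5 and 75.2 CPM. XRN1-null values were higher in both assays, and the lowest footprint value, that of WT replicate 1, rested on 40 counts. The mRNA rose 2.40-fold (log2 1.26 ± 0.11, FDR 5.53e-05). The footprint change of 1.11 ± 0.23 on the log2 scale had an FDR of 0.0102 and was not called.

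UPF3B and UPF3A are paralogs that bridge UPF2 to the exon junction complex. UPF3B (chrX:118967985-118986961, minus strand) had 66.0 and 81.4 CPM of mRNA in WT and 112 and 113 CPM in XRN1-null cells, and 48.4 and 66.2 CPM against 106 and 116 CPM of footprints. The mRNA rose 1.52-fold (log2 0.61 ± 0.10, FDR 0.00113), and the footprint log2 change of 0.92 ± 0.16 had an FDR of 0.00566. UPF3B was the factor whose footprint change was furthest above its mRNA change. That difference did not pass the threshold (log2 0.30 ± 0.19). Without WT Ribo-Seq replicate 2, UPF2 was slightly further above, at 0.62 against 0.60 for UPF3B.

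UPF3A (chr13:115047076-115071292, plus strand) differed from its paralog. Its mRNA levels were 23.7 and 24.8 CPM in WT and 28.8 and 29.4 CPM in XRN1-null cells, which do not overlap but are close. The log2 change of 0.26 ± 0.07 did not pass the threshold (FDR 0.0152). It was 0.25 without WT replicate 1 and 0.29 without WT replicate 2. Its footprints, with 21 to 53 counts per library, were 10.9 and 12.2 CPM in WT and 9.68 and 11.2 CPM in XRN1-null cells and overlapped (log2 -0.18 ± 0.24, FDR 0.639). In the annotation, 66.0% of the 29-nt windows of the UPF3A coding sequence also occur in transcripts of other genes, chiefly the pseudogenes UPF3AP2 and UPF3AP1, so its counts are uncertain.

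SMG1 (chr16:18816182-18937730, minus strand) is the kinase of UPF1, and its mRNA rose while the footprint change was close to 0. Its mRNA levels were 135 and 129 CPM in WT and 287 and 249 CPM in XRN1-null cells, and both XRN1-null values lay above WT. The rise was 2.02-fold (log2 1.02 ± 0.08, FDR 4.78e-05). Its footprints were 112 and 124 CPM in WT and 114 and 123 CPM in XRN1-null cells, with values that interleave (log2 -0.00 ± 0.14, FDR 0.989). SMG1 has partial copies elsewhere on chromosome 16, and 29.7% of the 29-nt windows of its coding sequence occur in transcripts of other genes. How reads with several matches were counted is not given in the sources used here.

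The 4 copies named SMG1P with a row in the table are transcribed pseudogenes on chromosome 16. A stretch of 90 nt inside a coding exon of SMG1 is shown with the matching stretch of each copy, as a part where all match closely. The sequences are from GRCh37, read 5′ to 3′ on the minus strand. Capitals mark in SMG1 every position where a copy differs and in each copy its own differences from SMG1.
SMG1 chr16:18895400-18895489: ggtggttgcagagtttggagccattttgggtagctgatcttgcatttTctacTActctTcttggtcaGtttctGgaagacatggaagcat
SMG1P2 chr16:29564415-29564504: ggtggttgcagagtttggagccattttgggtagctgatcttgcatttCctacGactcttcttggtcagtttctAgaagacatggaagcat
SMG1P3 chr16:21482983-21483072: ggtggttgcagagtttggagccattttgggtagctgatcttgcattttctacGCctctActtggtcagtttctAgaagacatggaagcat
SMG1P5 chr16:30304428-30304517: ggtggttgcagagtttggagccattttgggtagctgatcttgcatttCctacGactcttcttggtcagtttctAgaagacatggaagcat
SMG1P7 chr16:70279430-70279519: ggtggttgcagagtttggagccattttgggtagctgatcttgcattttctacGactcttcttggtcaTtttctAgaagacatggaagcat
Each copy differed from SMG1 at 3 or 4 of the 90 positions, and the first 47 bases were identical in all 5 sequences, which is longer than a footprint. The stretch does not gauge the likeness elsewhere in the copies. With windows of the length used above for SMG1, 60.7% of those of SMG1P2 also occur in SMG1. The share was 55.6% for SMG1P3, 60.1% for SMG1P5 and 49.7% for SMG1P7.

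SMG1P2 had 5.34 and 5.12 CPM of mRNA in WT and 17.9 and 19.6 CPM in XRN1-null cells, a rise of 3.59-fold (FDR 1.36e-05). Its footprints averaged 54.1 ± 5.74 CPM (SD, n = 2) in WT, from 96 and 253 counts, and were 28.6 and 36.2 CPM in XRN1-null cells, so they lay far above its mRNA in WT and lower in XRN1-null cells (log2 -0.77 ± 0.17, FDR 0.0126, not called). SMG1P3 mRNA rose as well (log2 1.53 ± 0.14, FDR 8.08e-05), and its footprints ranged from 49.0 to 49.2 CPM in WT and from 39.3 to 41.7 CPM in XRN1-null cells. For SMG1P5 and SMG1P7 neither assay passed the threshold, with mRNA log2 changes of 0.43 ± 0.11 and 0.50 ± 0.17. The read-through row BOLA2-SMG1P6, chosen after its values were seen, fell in mRNA (log2 -0.85 ± 0.18, FDR 0.00387) and in footprints (log2 -1.06 ± 0.16, FDR 0.00329).

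The 4 copies held 13.4% to 16.1% of the summed counts of SMG1 and these copies in RNA-Seq, but 49.6% to 58.7% in Ribo-Seq. When the 5 rows were summed, an alternative added after the data were seen, the log2 change was 1.03 ± 0.08 in mRNA and -0.24 ± 0.13 in footprints (FDR 3.68e-05 and 0.233). The mRNA of the sum rose, and its footprints were not called, as for SMG1 alone. The row BOLA2-SMG1P6, with 248 and 424 footprint counts in WT and a fall in both assays, was not part of the sum.

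SMG8 and SMG9 bind SMG1 and restrain its kinase activity. SMG8 (chr17:57286761-57292600, plus strand) was the one factor whose mRNA was lower in XRN1-null cells, with 60.5 and 64.2 CPM in WT against 52.1 and 52.9 CPM. The groups did not overlap, and the log2 change of -0.25 ± 0.06 was not called (FDR 0.0107). It was -0.27 without WT replicate 1 and -0.21 without WT replicate 2. The footprints of SMG8 were 67.7 and 86.1 CPM in WT and 73.7 and 76.2 CPM in XRN1-null cells, and the XRN1-null values lay between the WT values. An overlapping gene on the same strand, ENSG00000265303, shares 422 exonic bases with SMG8.

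SMG9 (chr19:44232135-44259114, minus strand) behaved differently from its partner. Its mRNA levels were 25.2 and 34.4 CPM in WT and 72.4 and 72.2 CPM in XRN1-null cells, the largest rise among the factors at 2.43-fold (log2 1.28 ± 0.13, FDR 0.000116). The rise of UPF2 (1.26 ± 0.11) differed from it by less than the SE. Without WT replicate 1, UPF2 rose more, at 1.12 against 1.09 for SMG9. Its footprints were 19.8 and 27.6 CPM in WT and 54.4 and 53.4 CPM in XRN1-null cells, and again no XRN1-null value was near the WT range. The footprints rose 2.18-fold (log2 1.12 ± 0.17, FDR 0.00333), which made SMG9 the only factor called in both assays.

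SMG5 and SMG6 act on phosphorylated UPF1, SMG5 as an adaptor in the recruitment of decay enzymes and in the dephosphorylation of UPF1, and SMG6 as the endonuclease. SMG5 (chr1:156219015-156252616, minus strand) had 288 and 286 CPM of mRNA in WT and 437 and 443 CPM in XRN1-null cells. The replicates of each genotype were close, and the mRNA rose 1.53-fold (log2 0.62 ± 0.06, FDR 0.000100). Its footprints were 55.7 and 50.3 CPM in WT and 73.3 and 88.3 CPM in XRN1-null cells. They did not overlap, and the log2 change of 0.62 ± 0.15, as large as in mRNA, was not called (FDR 0.0213).

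SMG6 (chr17:1963133-2207079, minus strand) had 31.6 and 38.6 CPM of mRNA in WT and 73.3 and 73.9 CPM in XRN1-null cells, a rise of 1.07 ± 0.10 on the log2 scale (FDR 7.12e-05). Its footprints were 14.6 and 24.1 CPM in WT and 33.0 and 27.2 CPM in XRN1-null cells, which did not overlap by a small gap (log2 0.55 ± 0.22, FDR 0.103). Without WT replicate 2 the footprint change was 1.07, and without WT replicate 1 it was 0.34. Exons of SMG6 share 2419 bases with HIC1 on the opposite strand, and whether counting used strand is not given in the sources used here.

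**Figure D2:**
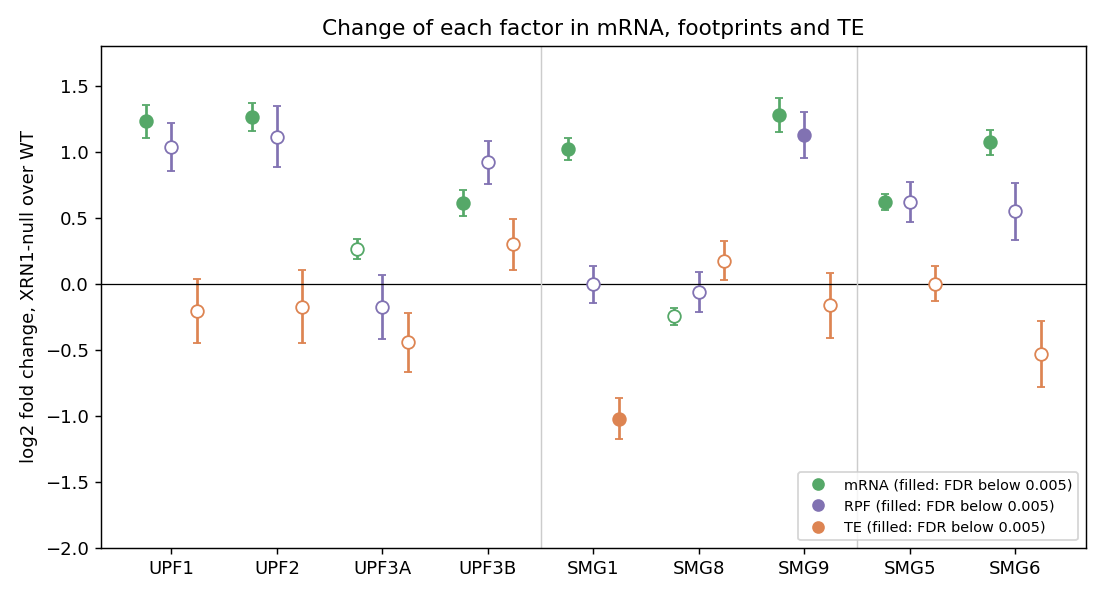
Log2 fold change of XRN1-null over WT for each factor in mRNA (green), RPF (purple) and TE (orange), with bars of 1 SE and filled points where the FDR was below 0.005. In mRNA 7 points are filled, in RPF only SMG9 (1.12) and in TE only SMG1 (-1.02).

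The number of footprint calls depended on few libraries. For SMG9, the factor called with all libraries, the log2 change stayed between 0.97 and 1.46 with 1 library left out. With 1 library left out, the number of factors called higher was 5 without WT replicate 1, 6 without WT replicate 2, 3 without XRN1-null replicate 1 and 2 without XRN1-null replicate 2. The share of all genes called higher moved with it, from 0.633% with all libraries to 5.82%, 12.7%, 0.831% and 0.703% in the same order. UPF1, UPF3B and SMG9 were called with DESeq2, against 0.93% of all genes, and 5 factors were higher at an FDR below 0.05 (UPF1, UPF2, UPF3B, SMG5 and SMG9), against 7.07% of all genes. For the count of 0 lower, 0 factors had an unadjusted p under 0.05, against 16.8% of all genes, and 0 were called by DESeq2, against 1.15%.

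WT replicate 2 lay above WT replicate 1 for 7 of 9 factors in mRNA and 8 of 9 in footprints, with median log2 ratios of 0.29 and 0.45. Over all genes 49.9% and 49.6% were higher in WT replicate 2, with median log2 ratios of -0.00 and -0.00. The largest such ratio was 1.06, for the footprints of UPF2, and the XRN1-null replicates differed by median log2 ratios of 0.01 in mRNA and 0.10 in footprints. Each fold change against WT therefore shifts with the WT library used. The footprint change of UPF2 was 0.79 on the log2 scale without WT replicate 1 and 1.88 without WT replicate 2, and both values are positive.

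Translation efficiency (TE), the ratio of footprints to mRNA, asks whether the footprints followed the mRNA. The test was the assay-by-genotype interaction in a model of all 8 libraries. SMG1 was the 1 factor of 9 called lower, against 1.78% of all genes, and 0 of 9 were called higher, against 0.0495% of all genes. The count of 0 higher was also 0 at an unadjusted p under 0.05, against 8.76% of all genes, and 0 by DESeq2, against 0.0693%. The TE of SMG1, as footprint CPM over mRNA CPM with no scaling for length, was 0.893 in WT, with 0.828 to 0.960 over the 4 pairings of a footprint and an mRNA library, and 0.442 in XRN1-null cells, with 0.397 to 0.495. These ranges do not overlap, and the log2 change was -1.02 ± 0.15 (FDR 0.00204).

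The TE call of SMG1 was lost when any of 6 libraries was left out, namely WT RNA-Seq replicate 2 (FDR 0.00814), XRN1-null RNA-Seq replicates 1 (0.0189) and 2 (0.00548), WT Ribo-Seq replicate 2 (0.00694) and XRN1-null Ribo-Seq replicates 1 (0.0335) and 2 (0.0183). In these 6 settings 0.188% to 1.42% of all genes were called lower, against 1.78% with all libraries. The size of the change stayed between -1.12 and -0.91. With the near copies summed into the row, the change was -1.28 ± 0.14 (FDR 0.000317). Of the copies themselves, SMG1P2 (-2.62 ± 0.19, FDR 1.52e-05) and SMG1P3 (-1.80 ± 0.19, FDR 0.000199) fell in TE, and SMG1P5 (-1.01 ± 0.18, FDR 0.0054) and SMG1P7 (-0.49 ± 0.28, FDR 0.319) did not pass the threshold.

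For the other 8 factors TE did not pass the threshold, with log2 changes from -0.53 ± 0.25 for SMG6 and -0.44 ± 0.22 for UPF3A to 0.30 ± 0.19 for UPF3B. SMG6 was at -0.73 without WT Ribo-Seq replicate 1 and at -0.00 without WT Ribo-Seq replicate 2, and UPF3B was at 0.13 without WT RNA-Seq replicate 2, 0.14 without WT Ribo-Seq replicate 1 and 0.60 without WT Ribo-Seq replicate 2. The values for UPF1 (-0.21 ± 0.24), UPF2 (-0.17 ± 0.27) and SMG9 (-0.16 ± 0.24) turned positive without WT Ribo-Seq replicate 2.

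**Figure D3:**
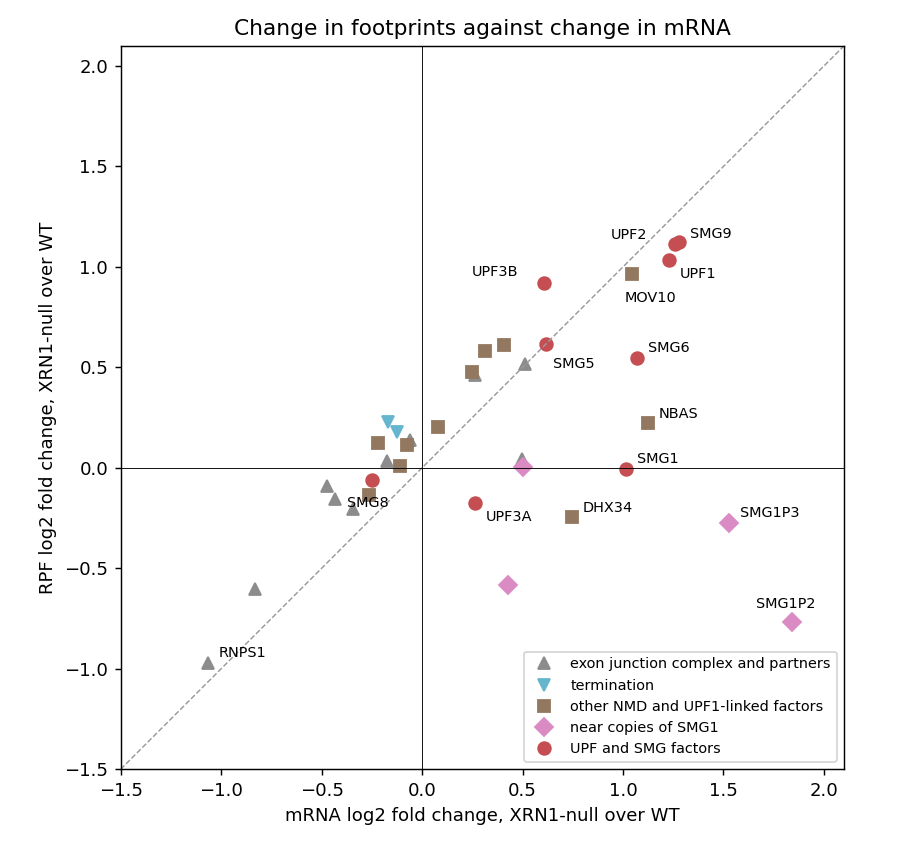
Log2 fold change of XRN1-null over WT in RPF (vertical) against mRNA (horizontal) for the 9 factors, the other genes of the pathway and the near copies of SMG1, each symbol being 1 gene and the dashed line marking equal change. UPF1, UPF2 and SMG9 lie near the line at the upper right, SMG1 lies at 1.02 in mRNA and -0.00 in RPF, and the copies SMG1P2 and SMG1P3 lie further below the line.

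Compared per length, mRNA levels (CPM per kb of the width given in the count table) in WT ran from 62.9 ± 0.396 (SD, n = 2) for SMG5 through 30.7 ± 4.53 for UPF3B and 23.0 ± 4.73 for UPF1 down to 8.24 ± 0.256 for SMG1 and 4.42 ± 0.627 for SMG6. UPF1 and SMG8 (19.1 ± 0.797) differed by less than the WT spread of UPF1, as did UPF3A (10.2 ± 0.299) and UPF2 (9.36 ± 1.52). In XRN1-null cells SMG5 remained at the top (96.4 ± 0.869) and SMG6 at the bottom (9.27 ± 0.0474), and UPF1 (54.0 ± 1.33) now stood above UPF3B (46.7 ± 0.168). SMG9 moved from 12.7 ± 2.76 to 30.7 ± 0.0719, past SMG8, which was at 16.1 ± 0.178.

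Footprint levels, as CPM per kb of GENCODE coding length, had a different order. In WT, UPF3B (39.5 ± 8.64) and UPF1 (29.9 ± 9.18) were highest. UPF3B was above UPF1 in both WT libraries, but the values of the 2 genes overlapped, at 33.4 and 45.7 against 23.5 and 36.4. SMG8 followed at 25.9 ± 4.38, and SMG5, first in mRNA, stood at 17.4 ± 1.26. SMG6 was lowest at 4.55 ± 1.58. In XRN1-null cells UPF3B (76.8 ± 5.08) and UPF1 (62.7 ± 3.22) led, SMG9 was at 34.5 ± 0.455, and UPF3A (7.33 ± 0.769) and SMG6 (7.07 ± 0.975) were lowest and overlapped.

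Between genes, TE levels were compared as footprint CPM per kb of coding length over mRNA CPM per kb of table width. SMG5 was lowest on this scale, at 0.277 in WT and 0.275 in XRN1-null cells, where 0.706% and 1.66% of genes were lower. The range of SMG5 over the pairings of libraries, 0.261 to 0.292 in WT, lay below that of every other factor. SMG8 (1.36 in WT and 1.57 in XRN1-null cells) and UPF3B (1.29 and 1.64) overlapped in both genotypes. The WT ranges of UPF1 (0.890 to 1.85), UPF2 (0.523 to 1.39), UPF3B (0.987 to 1.66), SMG6 (0.704 to 1.42) and SMG9 (0.867 to 1.65) overlap one another.

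**Figure D4:**
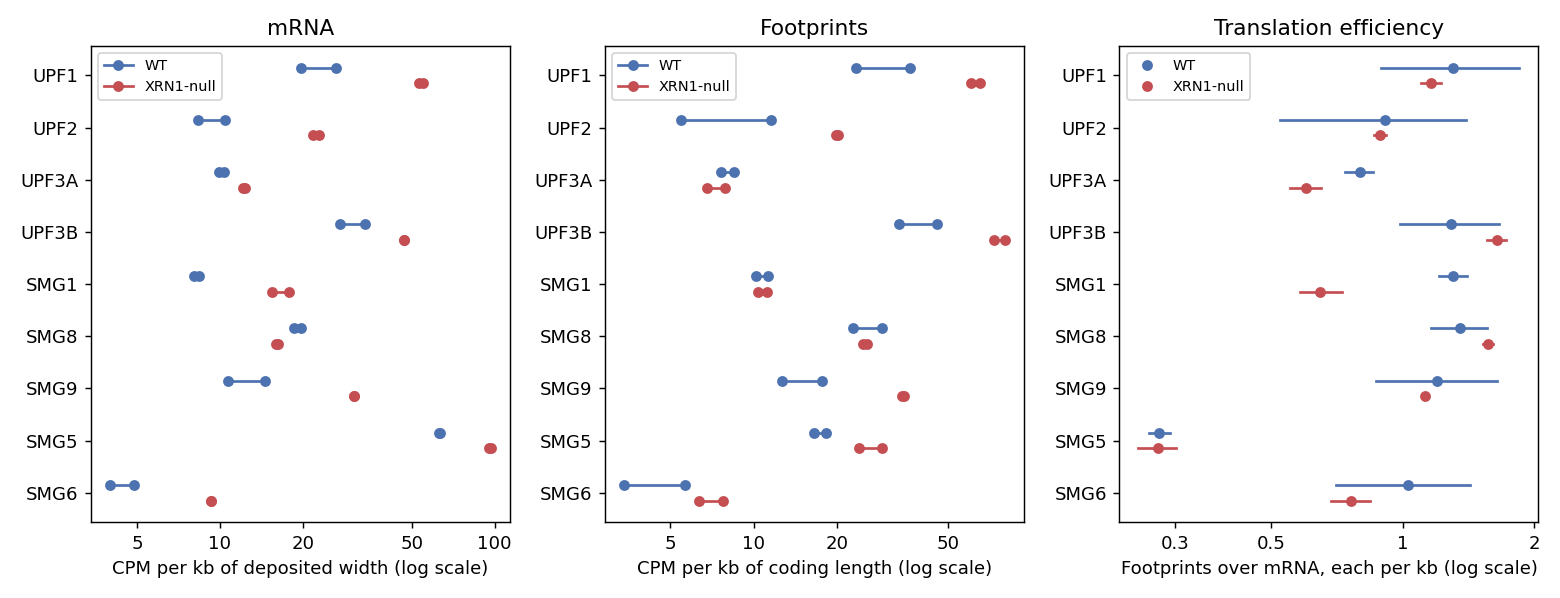
Levels of the 9 factors in WT (blue) and XRN1-null cells (red) on log scales, as mRNA CPM per kb, footprint CPM per kb with joined points for the 2 replicates, and TE as the ratio of these levels with a line for the range over pairings of libraries. SMG5 is highest in mRNA per kb and lowest in TE (0.277 in WT), and the TE of SMG1 is 1.31 in WT and 0.647 in XRN1-null cells.

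The 6 factors widely described as having NMD-sensitive mRNAs (UPF1, UPF2, UPF3B, SMG1, SMG5 and SMG6) rose in mRNA in 6 of 6 cases, against 22.9% of all genes, with a median log2 change of 1.04 and a range of 0.61 to 1.26. Of the other 3, SMG9 rose, and UPF3A and SMG8 were not called. The split was not tested, since the groups hold few genes. In footprints 0 of the 6 passed the threshold, with 5 higher at an unadjusted p under 0.05, against 16.2% of all genes, and 2 called by DESeq2, against 0.93%.

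Features of the transcripts that can mark NMD targets were read from the GENCODE release 44 reference transcripts on GRCh37. No factor had an exon junction over 50 nt after the stop codon of its reference transcript, as for all but 0.778% of the genes with a coding transcript. Only 1 transcript per gene was read, so other isoforms are not covered. Of all annotated transcripts, 2 of 17 of UPF1, 1 of 16 of SMG1, 1 of 6 of SMG8 and 1 of 13 of SMG9 are typed as NMD. None of the other factors' transcripts are, and the share over all genes was not counted. An upstream ATG was present once each in UPF2, SMG1, SMG5 and SMG9, and in 37.5% of genes. The 3′ untranslated region was 4709 nt in SMG1 and 3613 nt in SMG9, longer than in 91.2% and 84.7% of genes, and 228 nt in SMG8, longer than in 10.4%. The other 6 lay between 856 nt for UPF3B and 1713 nt for UPF1, near the median of 1308 nt. For SMG9 the width in the count table was 2353 bases against 5491 in the reference transcript, so much of that untranslated region was not in the authors' gene model.

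Promoters were taken from RefSeq (GRCh38.p14) for 8 of the 9 factors, and SMG8 was not in that table. The 250 bases before the start are shown for UPF1 and SMG9, which rose most among the factors with a single listed start. Both are on chromosome 19, UPF1 on the plus and SMG9 on the minus strand, and capitals mark matches on either strand to the GC box GGGCGG, the CCAAT box, the TATA box TATAAA, the ETS core CCGGAA or the NRF1 motif.
UPF1 chr19:18831709-18831958: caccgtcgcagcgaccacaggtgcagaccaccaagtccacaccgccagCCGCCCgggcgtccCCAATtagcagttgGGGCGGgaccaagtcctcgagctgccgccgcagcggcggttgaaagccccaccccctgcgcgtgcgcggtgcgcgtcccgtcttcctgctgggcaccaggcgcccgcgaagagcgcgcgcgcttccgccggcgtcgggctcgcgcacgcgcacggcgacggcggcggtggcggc
SMG9 chr19:43754963-43755212: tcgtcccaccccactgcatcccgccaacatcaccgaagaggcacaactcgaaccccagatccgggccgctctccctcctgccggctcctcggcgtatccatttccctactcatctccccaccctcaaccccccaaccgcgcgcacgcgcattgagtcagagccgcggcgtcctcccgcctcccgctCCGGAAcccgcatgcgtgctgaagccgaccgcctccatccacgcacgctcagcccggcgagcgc
UPF1 had 2 matches to the GC box and 1 to the CCAAT box, while SMG9 had neither and 1 match to the ETS core. Counting any listed start, the GC box was in 7 of the 8 factors and in 46.2% of the 27305 genes of that table, the CCAAT box in 4 and 10102 of these genes, the ETS core in 4 and 17.2%, the TATA box in 0 and 13.0%, and the NRF1 motif in 0 and 1.28%. Of the factors that rose, UPF1, UPF2, UPF3B, SMG1, SMG5 and SMG6 had a GC box at a listed start, and SMG9 did not. UPF3A, which was not called, had it too. Some factors have several listed starts, and the shares were not adjusted for the number of starts.

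Of 10 genes of the exon junction complex and its partners, 2 rose in mRNA and 5 fell, against 22.9% and 23.2% of all genes, with a median log2 change of -0.26. The peripheral factor RNPS1 fell in mRNA (log2 -1.07 ± 0.06, FDR 1.25e-05) and in footprints (-0.97 ± 0.14, FDR 0.0026), with mRNA at 416 and 415 CPM in WT and 198 and 198 CPM in XRN1-null cells. The core subunits MAGOH (-0.43 ± 0.07), MAGOHB (-0.83 ± 0.07) and RBM8A (-0.34 ± 0.06) fell in mRNA, as did the disassembly factor PYM1 (-0.47 ± 0.08). The core subunit CASC3 (0.51 ± 0.07) and ACIN1 (0.50 ± 0.07) rose, and the helicase EIF4A3 was not called (-0.06 ± 0.11).

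Of the 2 measured termination factors, ETF1 and GSPT1, 0 were called in mRNA, against 22.9% of all genes called higher and 23.2% lower. ETF1 was lower at an unadjusted p under 0.05 (log2 -0.17 ± 0.06, FDR 0.0447), as were 36% of all genes, and DESeq2 called 0 of 2. GSPT2 was not analysed here. Of 11 further factors linked to NMD or UPF1, 3 rose in mRNA, near the 22.9% of all genes, and none fell, against 23.2%, with 2 lower at an unadjusted p under 0.05, against 36%, and 0 by DESeq2, against 24.2%. Those that rose were the helicase DHX34 (0.75 ± 0.06), NBAS (1.12 ± 0.06) and the helicase MOV10 (1.05 ± 0.06). In footprints MOV10 had a log2 change of 0.96 ± 0.17 at the very edge of the threshold (FDR 0.004999). NBAS, like SMG1, fell in TE (-0.90 ± 0.12, FDR 0.00129), with mRNA at 34.0 and 35.8 CPM in WT and 76.7 and 75.4 CPM in XRN1-null cells and footprints at 62.5 and 62.9 CPM against 73.5 and 73.0 CPM.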

How the data were processed

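Per the paper's methods, the authors filtered ribosomal RNA reads with Bowtie2, mapped the rest on hg19 with TopHat2, kept footprints of 29 and 30 nt and counted reads per gene with QuasR. The deposited counts are whole-number counts per gene, unpooled, with a width per gene. Genes had been selected above an FPKM of 2 by the authors. The authors' own edgeR and RiboDiff comparisons (fold changes, p-values, FDR and TE) were not used. The members and lists were chosen with earlier results of these data known. The rule for named genes took the members, XRN1, at most 8 listed pathway genes past the threshold by the size of their mRNA change, and rows starting SMG1P or UPF3AP. MAGOH, RBM8A, EIF4A3, ETF1, GSPT1, BOLA2-SMG1P6 and the marker genes lie outside it and were named after their values were seen. A further gene is not reported here.

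The counts were fitted in edgeR 4.0.16 (R 4.3.3) with TMM factors computed within an assay, genotype as the term for mRNA and RPF, and the interaction of assay and genotype for TE. The quasi-likelihood test was adjusted by Benjamini-Hochberg over 10105 genes, and FDR below 0.005 was called. No gene was filtered. CPM used TMM-scaled totals. DESeq2 1.42.0, other scalings, a minimum of 10 counts, blocks, thinning and left-out libraries were alternatives. The tests were tried on simulated counts with the same spread in both genotypes. The WT replicates of these data differed more than the XRN1-null ones, so that trial does not gauge the calls here. Annotation was GENCODE 44 on GRCh37, to which 10000 genes were matched, 479 by an older symbol. Figures were drawn with matplotlib.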

Additional observations from a re-analysis of the deposited data

How the results depend on the processing

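The 7 factors higher in mRNA, against 22.9% of all genes, were 7 with RLE factors (23.8%), library totals (26.4%) and DESeq2 (26.6%). They were also 7 with at least 10 counts (22.9%), and 8 at an FDR below 0.05 (32.8%). With 1 library left out, no mRNA change of a factor changed sign. The count lower in mRNA was 0, but 1 at an FDR below 0.05, against 34.2% of all genes, and 0 to 1 with 1 library left out, against 10.9% to 33.5%. The count higher in RPF was 1, but 3 with RLE factors, library totals or DESeq2, 5 at an FDR below 0.05 and 2 to 6 with 1 library left out, where 64 of all genes became 80, 133, 94, 714 and 71 to 1282. The count lower in TE was 1, and 0 to 1 with 1 library left out, where 180 of all genes became 19 to 230. With the replicate number as a block (replicate block), 5 factors were higher in RPF, as were 616 of all genes. In mRNA 7 factors were higher with that block, as were 2858 of all genes. The labels do not say that a number marks a shared preparation, and same-numbered deviations correlated at 0.18 in RNA-Seq and 0.07 in Ribo-Seq. Where 1 library was left in a group, it was assumed to vary like the other group. Values near 0 changed sign. SMG1 in RPF was 0.00331 with RLE factors, 0.0134 with library totals, 0.00560 with DESeq2, 0.00412 with the replicate block and -0.067 to 0.090 with 1 library left out. SMG5 in TE was -0.00858, -0.0382 and -0.00799 with the same scalings and DESeq2, -0.0239 with at least 10 counts, -0.00344 with the replicate block by culture and -0.14 to 0.13 with 1 library left out. With 1 library left out, SMG8 in RPF was -0.20 to 0.16, and in TE UPF1 was -0.44 to 0.20, UPF2 -0.47 to 0.62 and SMG9 -0.41 to 0.18. The causes were not tested. Footprint counts of the factors started at 21 per library. With RNA-Seq counts drawn down to Ribo-Seq depth, 7 factors and 1803 of all genes were higher in mRNA.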
